A study of Homo sapiens with 12 samples.

Results

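EGFR, its partner receptors ERBB2 and ERBB3, and the receptor inhibitors ERRFI1 and LRIG1 were followed probe by probe across 6 clones of PC9. PC9 is a human lung adenocarcinoma line that carries an activating EGFR mutation, and gefitinib is a small molecule that blocks the EGFR kinase. Every array probe annotated to one of the 5 genes was taken, which gave 13 of the 47229 probes: 4 for EGFR, 3 for ERBB2, 3 for ERBB3, 1 for ERRFI1 and 2 for LRIG1. Of the 13, 9 passed the filter on dim probes, which asked for a signal above the detection limit on both arrays of at least 1 clone, and 4 did not.

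The labels call clone B7 sensitive to gefitinib and the other 5 clones, D6, E1, E2, E3 and E6, tolerant. Each had been grown from a single sorted PC9 cell, so a value for a response group rests on 1 sensitive clone and on 5 tolerant ones. All 6 carry the same treatment entry, 0.4 to 2 µM gefitinib for 14 days, while the design text also names plates that received DMSO, the solvent, and does not say which plates gave B7. Drug response, exposure to the drug and the identity of the lone B7 clone therefore cannot be told apart. Each clone was measured on 2 bead arrays, and no label says that these came from separate cultures.

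The ErbB receptors are cell-surface tyrosine kinases that act in pairs. A ligand such as TGFA or HBEGF opens EGFR for pairing, ERBB2 has no known ligand of its own and is the preferred partner, and ERBB3, whose kinase is weak, binds neuregulins and couples strongly to PI3-kinase and AKT. ERRFI1, also called MIG6, is induced by receptor signalling and binds the kinase domain of EGFR and ERBB2 to shut it off, and LRIG1 is a membrane protein that promotes breakdown of the receptors. In EGFR-mutant lung cancer the mutant receptor is the drug target, and signalling through ERBB2 or ERBB3 is a known route around its inhibition.

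On GRCh38.p14, EGFR spans positions 55019017 to 55211628 of chromosome 7, ERBB2 positions 39688094 to 39728658 of chromosome 17, and ERBB3 positions 56080108 to 56103505 of chromosome 12. ERRFI1 lies on chromosome 1 from 8011727 to 8026309, and LRIG1 on chromosome 3 from 66378797 to 66501121. The promoter windows of EGFR and ERRFI1 are shown because the levels of these 2 genes followed each other across the clones. They are RefSeq sequence of GRCh38.p14 from 250 bases before to 50 bases after the gene start, read 5′ to 3′ on the gene's strand, with the GC box GGGCGG, read on either strand, in capitals.
EGFR, chr7:55018767-55019066, plus strand: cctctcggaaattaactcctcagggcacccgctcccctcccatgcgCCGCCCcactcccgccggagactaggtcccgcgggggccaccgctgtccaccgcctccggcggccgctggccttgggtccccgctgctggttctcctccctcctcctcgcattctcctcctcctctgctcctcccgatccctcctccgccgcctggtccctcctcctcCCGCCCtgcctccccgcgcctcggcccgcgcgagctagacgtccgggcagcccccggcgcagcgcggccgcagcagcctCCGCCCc
ERRFI1, chr1:8026260-8026559, minus strand: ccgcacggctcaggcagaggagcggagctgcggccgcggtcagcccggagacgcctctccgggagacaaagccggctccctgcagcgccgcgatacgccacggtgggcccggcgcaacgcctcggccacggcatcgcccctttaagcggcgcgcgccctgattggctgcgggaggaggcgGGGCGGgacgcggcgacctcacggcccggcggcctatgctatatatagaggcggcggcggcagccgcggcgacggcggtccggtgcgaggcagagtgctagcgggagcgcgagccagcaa
The EGFR window holds 3 GC boxes and is 75.3% G and C. The ERRFI1 window holds 1 and is 74.7% G and C, against a median of 58.7% over all 35116 promoter windows of the table, 45% of which hold a GC box. Neither window has a match to the AP-1 motif TGANTCA, found in 7.71% of all windows on either strand, or to the exact TATA box letters TATAAA, found in 11.5%. Looser forms of the TATA box were not searched, and the ERRFI1 window holds the run tatatata, which the exact letters miss. No motif match is a measured binding site.

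Values are given as log2 levels, that is, the log2 of the scanner signal after background correction and quantile normalization, with 16 intensity units added. A log2 fold change on this scale is smaller than the fold in the signal for dim probes. The 75th percentile of scanner signal was 130 to 132.8 intensity units on the B7 arrays and 80.1 to 118.4 on the tolerant ones, and 19302 to 20290 probes lay above the detection limit per array. Between both arrays of a clone the correlation was 0.9941 to 0.9968 over the kept probes. The epithelial markers EPCAM, KRT8, KRT18, KRT19 and CDH1 were detected on all 12 arrays. Of the fibroblast markers, 4 of 6 were detected on no array, and the same held for the leukocyte markers PTPRC and CD3E and the endothelial marker VWF. The fibroblast marker COL1A1, the leukocyte markers CD14 and LYZ and the endothelial markers PECAM1 and CDH5 were detected on all 12, and COL1A1 differed from B7 by 1.55 log2 units (adjusted p = 0.207 by limma), CD14 by 1.21 (adjusted p = 0.165) and CDH5 by 1.11 (adjusted p = 0.185). Only 2 genes per list had a kept probe: COL1A1 and DCN, CD14 and LYZ, and PECAM1 and CDH5. Their normalized levels were summed on the linear scale. The fibroblast sum was 135 intensity units in B7 against 163 to 403 in the other clones. The leukocyte sum was 180 against 273 to 504, and the endothelial sum 266 against 304 to 470. These sums largely restate the differences above, since DCN differed by -0.02, PECAM1 by -0.017 and LYZ by 0.42. The part of these genes in the results was not tested. In RNA from a whole clone, fewer cells that express a gene and less of its RNA per cell cannot be told apart.

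Set against B7, the tolerant clones had more ERBB3 signal at the probe annotated to its full-length transcript, by 1.67 ± 0.29 log2 units. The other ERBB3 probes differed by 0.34 and 0.16 and were not called. At 1 of the EGFR probes the tolerant clones had less signal, by 1.5. ERBB2 was 1.22 log2 units higher at its bright probe without passing the test. The bright EGFR and ERRFI1 probes ran both ways: each was above B7 in clone E1 and below it in E3 and E6. Of the 9 measured probes, 2 were called under an adjusted p of 0.05 by limma on clone means (5 tolerant clones against 1), against 2.42% of all 21912 kept probes. The called ERBB3 probe is 1 of 9 called higher, where 1.1% of all kept probes were, and the called EGFR probe is 1 of 9 called lower, where 1.31% were. Both calls were lost in the authors' values (adjusted p = 0.0572 for ERBB3 and 0.0619 for EGFR by limma). The median size of the difference was 0.344 log2 units over the 9 probes and 0.323 over all kept probes.

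**Figure D1:**
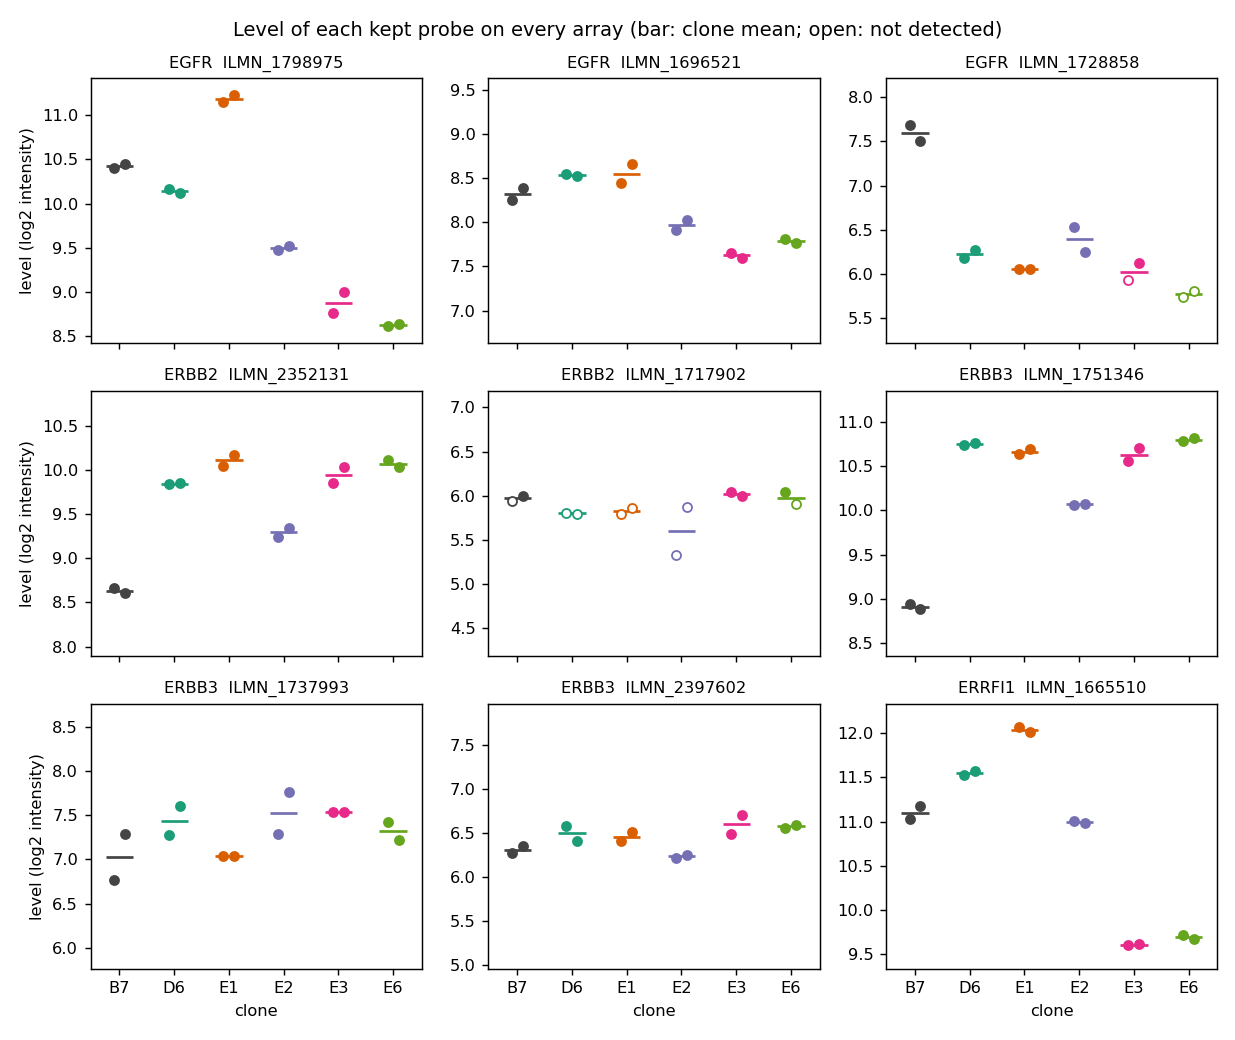
Normalised log2 level of each kept probe of EGFR, ERBB2, ERBB3 and ERRFI1 on the 12 arrays, 1 point per array (open where not detected) and a bar for the clone mean. EGFR ILMN_1798975 and ERRFI1 ILMN_1665510 spread over more than 2 log2 units between the tolerant clones, while ERBB3 ILMN_1751346 lies between 10.06 and 10.82 in all of them and at 8.89 and 8.94 for B7.

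EGFR, the receptor that gefitinib blocks, was measured brightest by probe ILMN_1798975, annotated to the transcript of the full-length receptor (NM_005228). The log2 level on the 2 arrays was 10.40 and 10.45 for B7, 10.16 and 10.12 for D6, 11.15 and 11.22 for E1, 9.47 and 9.53 for E2, 8.76 and 9.0 for E3, and 8.61 and 8.64 for E6. The clones fell in the order E1, B7, D6, E2, E3 and E6, and the arrays of no neighbouring clones overlapped. The mean of the 5 tolerant clones was 9.67 ± 1.03 (SD) against 10.42 in B7, a difference of -0.76 ± 0.86 (SE) with an adjusted p of 0.643 by limma. That difference was smaller than the spread between the tolerant clones.

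Set against B7 one by one at the array level, E1 was higher by 0.76 log2 units (1.70-fold, adjusted p = 3.98e-05 by limma), while D6 differed by -0.28 (adjusted p = 0.0249) and E2 by -0.92 (adjusted p = 2.84e-05). E3 differed by -1.54, or 2.92-fold lower, and E6 by -1.80, or 3.49-fold lower, with adjusted p-values of 2.87e-07 and 8.37e-08. Their only measure of error is the spread between the 2 arrays of a clone, which may be technical. The E1 and D6 values depend on the scaling of the arrays. E1 was at 0.33 with median scaling (adjusted p = 0.0174) and 0.21 with no normalization between arrays (adjusted p = 0.0972). D6 was at -0.87 and -1.06 under these settings, and its call was lost in 6 of 20 alternatives, among them the authors' values (adjusted p = 0.0910) and no filter (adjusted p = 0.116). E1 and E6 lay 2.56 log2 units apart, a 5.91-fold range among clones that share the tolerant label. A range this wide was uncommon: it exceeded that of 98.89% of the kept probes, whose median range over the tolerant clones was 0.548.

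The other EGFR probes are annotated to shorter transcripts, which encode secreted forms of the receptor without the kinase domain. No probe sequences were used here, so which transcripts a probe binds in addition to the annotated one is not known. At ILMN_1696521 (NM_201282) the log2 levels were 8.26 and 8.38 for B7, 8.55 and 8.53 for D6, 8.45 and 8.66 for E1, 7.92 and 8.02 for E2, 7.66 and 7.60 for E3, and 7.81 and 7.76 for E6. As at the bright probe, E1 stood at the top, with the arrays of D6 between its own, and E2, E3 and E6 stood below B7. The range over the tolerant clones was 0.92 log2 units. The tolerant mean differed from B7 by -0.23 ± 0.39 (SE, adjusted p = 0.770 by limma). D6 and E1 were 0.22 and 0.23 above B7 (adjusted p = 0.0757 and 0.0611), values that turned to -0.33 and -0.15 with median scaling and to -0.53 and -0.27 with no normalization between arrays.

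Probe ILMN_1728858 (NM_201284) gave the EGFR difference that passed the test. Its log2 levels were 7.68 and 7.51 for B7, 6.18 and 6.28 for D6, 6.05 and 6.06 for E1, 6.54 and 6.25 for E2, 5.93 and 6.12 for E3, and 5.74 and 5.81 for E6. All 10 tolerant arrays lay below both B7 arrays, and D6, E1, E2 and E3 differed from B7 by -1.20 (E2) to -1.57 (E3). E6 was not above the detection limit on either array, so its level there is only bounded, at least 3.06-fold lower than in B7, and E3 was above the limit on 1 of its 2 arrays. The tolerant mean was lower by 1.5 ± 0.25 log2 units (SE, adjusted p = 0.0335 by limma), or 2.83-fold. This probe is dim: its mean scanner signal was 198.6 intensity units in B7 and 28.1 in the tolerant clones, a ratio of 7.08, and 7 of the 10 tolerant arrays lay above the detection limit of 20.1 to 24.1 units. In the authors' processed values the difference was -2.50 (adjusted p = 0.0619), and with no background correction it was -2.54 (adjusted p = 0.104). The call was also lost when D6, E1, E3 or E6 was left out (adjusted p = 0.0634 to 0.0896), each time with 4 tolerant clones in the fit.

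The fourth EGFR probe, ILMN_1755535, also annotated to NM_201282, was detected on no array, with scanner signals of -12.3 to 13.4 intensity units.

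**Figure D2:**
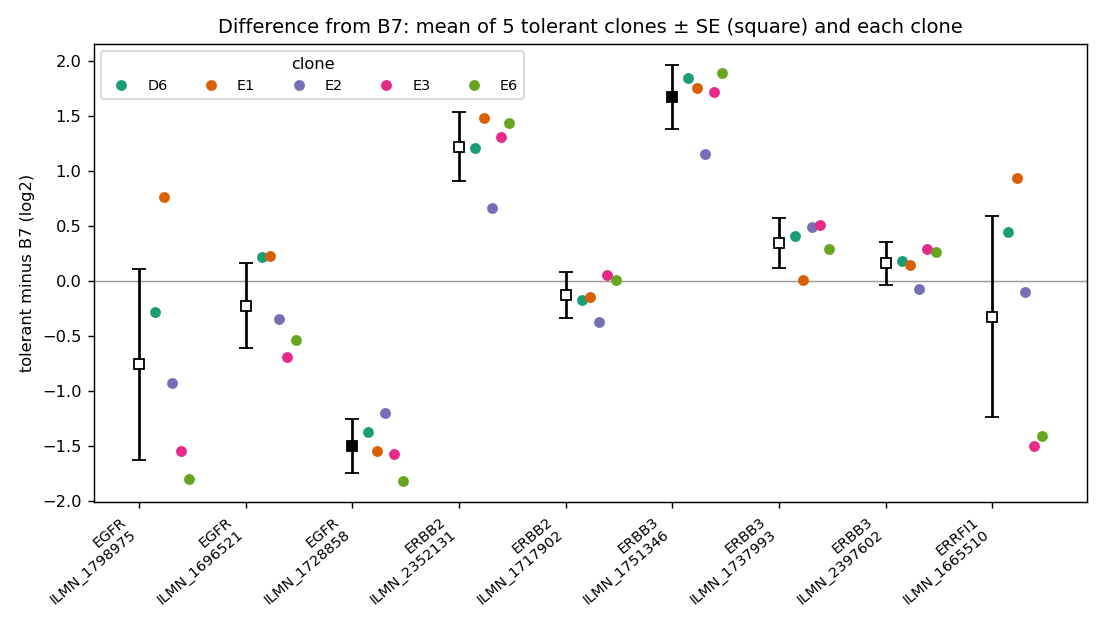
Difference of each tolerant clone from B7 in log2 units for the 9 kept probes, 1 point per clone, with the mean of the 5 clones and its SE as a square, filled where called. The 5 clones lie well to one side of 0 at EGFR ILMN_1728858, ERBB2 ILMN_2352131 and ERBB3 ILMN_1751346, and lie on both sides of 0 at EGFR ILMN_1798975 and ERRFI1 ILMN_1665510.

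ERBB2, the preferred partner of the other receptors, was measured by ILMN_2352131 (NM_004448). Its log2 levels were 8.66 and 8.61 for B7, 9.84 and 9.85 for D6, 10.05 and 10.17 for E1, 9.25 and 9.34 for E2, 9.85 and 10.03 for E3, and 10.11 and 10.03 for E6. All 10 tolerant arrays lay above both B7 arrays, and E2 was the lowest of the tolerant clones on this scale. The tolerant mean was 1.22 ± 0.31 log2 units above B7 (SE), a 2.33-fold difference with an adjusted p of 0.0897 by limma, which does not pass the threshold. With E2 left out the adjusted p was 0.00974. Of the fits that left out an array or clone, that one also called the most of all kept probes. The ERBB2 difference was not called in 25 of 29 alternatives (adjusted p up to 0.169 by limma). The size depends on the scaling: the tolerant mean was 0.85 above B7 with median scaling and 0.74 with no normalization between arrays. D6 went from 1.21 to 0.62 and 0.43 under these settings, and in the last of them lay next to E2 (0.44), as in the scanner signal, where the clone means were 664 intensity units for D6 and 668 for E2. At the array level each clone was called higher than B7, from 0.66 in E2 (adjusted p = 0.000297) to 1.48 in E1 (adjusted p = 2.58e-07), or 1.58-fold to 2.78-fold.

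A pair of other ERBB2 probes gave little or no signal. ILMN_1717902 (NM_001005862), detected on 1 B7 array and 3 tolerant arrays, passed the filter through E3 alone and differed by -0.13 ± 0.21 (SE, adjusted p = 0.762 by limma). ILMN_1728761, annotated to NM_004448 like the bright probe, was detected on no array, with scanner signals of -10.7 to 7.18 intensity units.

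ERBB3, the receptor for neuregulins that couples to PI3-kinase, had the other called difference of the family. At ILMN_1751346, annotated to the full-length transcript (NM_001982), the log2 levels were 8.94 and 8.89 for B7, 10.75 and 10.77 for D6, 10.63 and 10.70 for E1, 10.06 and 10.08 for E2, 10.55 and 10.70 for E3, and 10.79 and 10.82 for E6. Scanner signals were 597 and 585 intensity units for B7, against 1189 to 1716 for the tolerant clones, so the separation is visible before normalization. The tolerant mean was higher by 1.67 ± 0.29 log2 units (SE, adjusted p = 0.0375 by limma), or 3.19-fold, with all 10 tolerant arrays above both B7 arrays. D6, E1, E3 and E6 lay 1.72 to 1.89 above B7 and E2 lay 1.16 above it. The call was lost in the authors' values (adjusted p = 0.0572), with no background correction (adjusted p = 0.0722), and with D6, E1, E3 or E6 left out (adjusted p = 0.0768 to 0.0979), while the difference stayed between 1.20 and 1.80 in all 29 alternatives.

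The other ERBB3 probes, ILMN_1737993 and ILMN_2397602, are annotated to a short transcript that encodes a secreted form (NM_001005915). They differed by 0.34 ± 0.23 (SE, adjusted p = 0.405 by limma) and 0.16 ± 0.20 (adjusted p = 0.665), with scanner signals of 82.3 to 198 and 36.5 to 64.2 intensity units. With no normalization between arrays the second of these differed by -0.035.

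**Figure D3:**
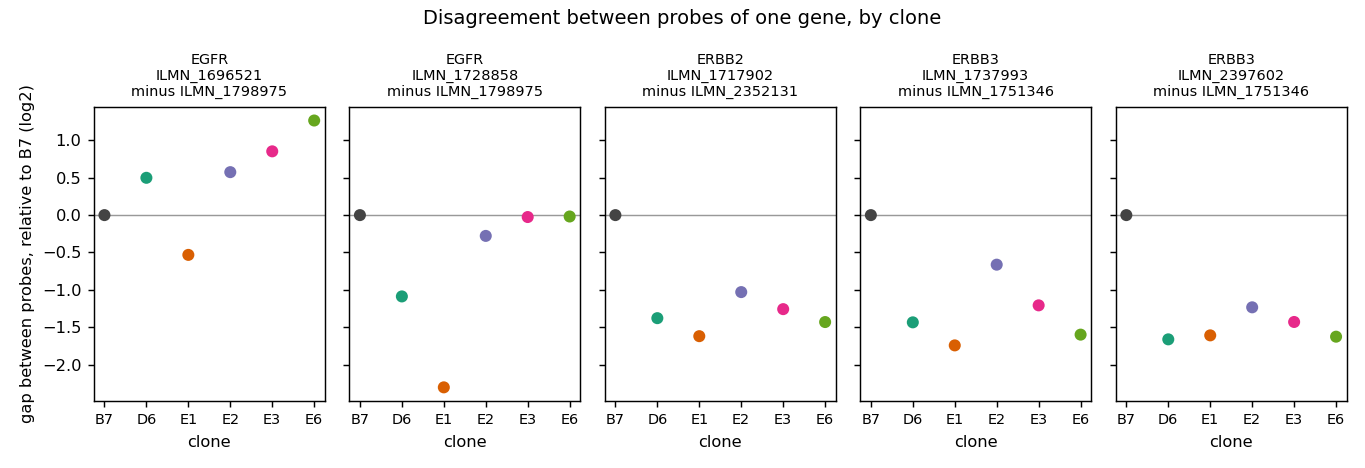
Difference between a probe and the brightest probe of its gene in the change from B7, in log2 units, for the 5 pairs of kept probes, 1 point per clone with B7 at 0. All 5 tolerant clones lie below 0 at both ERBB3 pairs and at the ERBB2 pair. They also do at the pair of EGFR ILMN_1728858, but E3 and E6 lie almost at 0 there. The pair of ERBB3 ILMN_2397602 and ILMN_1751346 has a mean of -1.51 over the tolerant clones.

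Whether probes of one gene changed unequally was tested on the log2 difference between each kept probe and the brightest kept probe of its gene. Of the 5 pairs, 1 was called, against 0.647% of the 4170 pairs of all genes: ERBB3 ILMN_2397602 differed from ILMN_1751346 by -1.51 ± 0.20 log2 units in its change from B7 (SE, adjusted p = 0.0245 by limma), with the same sign in 5 of 5 tolerant clones. The call was lost with no background correction (adjusted p = 0.0505), in the authors' values (adjusted p = 0.0609) and without D6, E3 or E6 (adjusted p = 0.0520 to 0.0725). The other ERBB3 probe of the short transcript differed from the bright one by -1.33 ± 0.37 (adjusted p = 0.133), with the same sign in 5 of 5 clones. The ERBB2 pair differed by -1.34 ± 0.22 (adjusted p = 0.0513), also with the same sign in 5 of 5 clones. However, ILMN_1717902 was near background on all arrays and could not follow the bright probe, so this value shows no unequal change. For EGFR, the differences from the bright probe were 0.53 ± 0.55 at ILMN_1696521 (adjusted p = 0.657) and -0.74 ± 0.79 at ILMN_1728858 (adjusted p = 0.669). The sign was the same in 4 of 5 clones at ILMN_1696521 and in 5 of 5 at ILMN_1728858. A shared sign is thus not particular to ERBB3, but at ILMN_1728858 it barely held in E3 and E6. The gap to the bright probe there was -2.83 in B7, -2.85 in E3 and -2.85 in E6. It was -3.92 in D6, -5.13 in E1 and -3.11 in E2. E6 was not above the detection limit at ILMN_1728858 on either array. The 16 units added before the log compress the differences of dim probes, and with no background correction, which adds none, the called ERBB3 pair differed by -1.46.

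ERRFI1, the feedback inhibitor that occupies the receptor kinase, was measured by 1 probe, ILMN_1665510 (NM_018948). Its log2 levels were 11.03 and 11.18 for B7, 11.52 and 11.57 for D6, 12.07 and 12.01 for E1, 11.01 and 10.99 for E2, 9.60 and 9.61 for E3, and 9.71 and 9.67 for E6. The clones formed the order E1, D6, B7, E2, E6 and E3, with a step of 1.31 log2 units between E2 and E6 and no overlap between neighbours. The tolerant mean differed from B7 by -0.33 ± 0.91 (SE, adjusted p = 0.865 by limma), again less than the spread between the tolerant clones (SD 1.09).

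In the array-level comparison with B7, ERRFI1 was higher in E1 by 0.94 (1.91-fold, adjusted p = 3.34e-06; 0.49 with median scaling and 0.37 with no normalization between arrays, both called) and lower in E3 and E6, at -1.49 (2.82-fold, adjusted p = 1.55e-07) and -1.41 (2.66-fold, adjusted p = 2.09e-07). E2 differed by -0.10 (adjusted p = 0.362). D6 was higher by 0.44 (adjusted p = 0.000946), but the sign turned with median scaling, to -0.19 (adjusted p = 0.160), and with no normalization between arrays, to -0.38 (adjusted p = 0.00530). The scanner signals show the same dependence: 2755 and 3086 intensity units in B7 against 2210 and 2254 in D6, whose arrays were the dimmest of the series. E1 and E3 lay 2.43 log2 units apart, a 5.39-fold range that exceeded that of 98.61% of the kept probes.

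LRIG1, the other inhibitor, was below the detection limit on all 12 arrays at both of its probes. The scanner signal of ILMN_1707342 was -7.71 to 15.9 intensity units and that of ILMN_2128795 was -12.8 to 13.9, against a limit of 20.1 to 24.1. LRIG1 therefore has no measured difference between clones here.

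**Figure D4:**
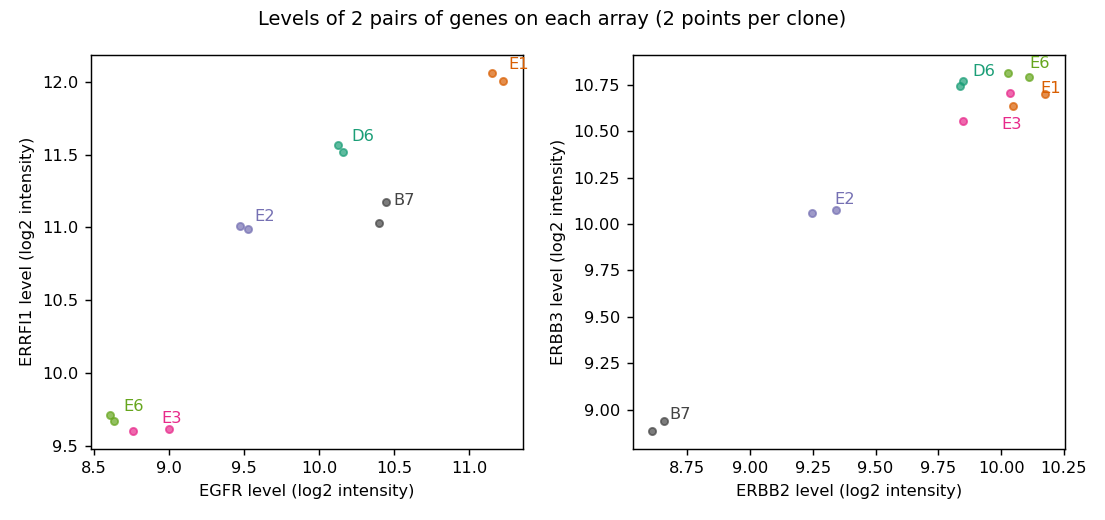
Log2 intensity levels at the bright probes on each of the 12 arrays, 2 points per clone, with EGFR (horizontal) and ERRFI1 (vertical) on the left and ERBB2 (horizontal) and ERBB3 (vertical) on the right. EGFR and ERRFI1 run together from E6 and E3 at the bottom to E1 at the top, and after quantile normalization ERBB2 and ERBB3 place B7 lowest, E2 next and the other 4 clones together. With no normalization between arrays D6 lies beside E2 in ERBB2.

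Across the 6 clones the bright probes fell into 2 patterns. The clone means of EGFR and ERRFI1 had a Pearson correlation of 0.937 (n = 6 clones; 0.952 over the 5 tolerant clones), and those of ERBB2 and ERBB3 of 0.971 (0.919 over the 5 tolerant clones). Between the patterns the correlations over 6 clones ran from -0.288 to -0.167, and with no normalization between arrays from -0.597 to -0.464. Over the 5 tolerant clones they ran from -0.131 to 0.136, and with no normalization between arrays from -0.662 to -0.133. These are descriptions of 6 points from arrays that were normalized together, so no p-value is given. In words, E3 and E6 were low in EGFR and ERRFI1 while among the high clones in ERBB2 and ERBB3. E1 was high in all 4 genes, and B7 was lowest in ERBB2 and ERBB3 but near the top in EGFR and in the middle in ERRFI1.

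The tolerant clones differed among themselves at most of these probes. By a moderated F test over the 5 tolerant clones (limma, array level), 7 of the 9 kept probes were called, against 63.4% of all kept probes, so most probes on the array share this property. The adjusted p was 2.6e-08 for ERRFI1, 6.83e-08 for EGFR ILMN_1798975, 0.00016 for ERBB3 ILMN_1751346 and 0.000177 for ERBB2 ILMN_2352131. For the dim ERBB3 probe ILMN_2397602 it was 0.0477, and that call held in 6 of 20 alternatives. In the single comparisons with B7, D6 had 5 of 9 probes called (56.8% of all kept probes), E1 had 5 (57.9%), E2 had 5 (39.1%), E3 had 8 (51.9%) and E6 had 7 (53.7%). With shares this high over all probes, the sizes and signs above say more than the counts.

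**Figure D5:**
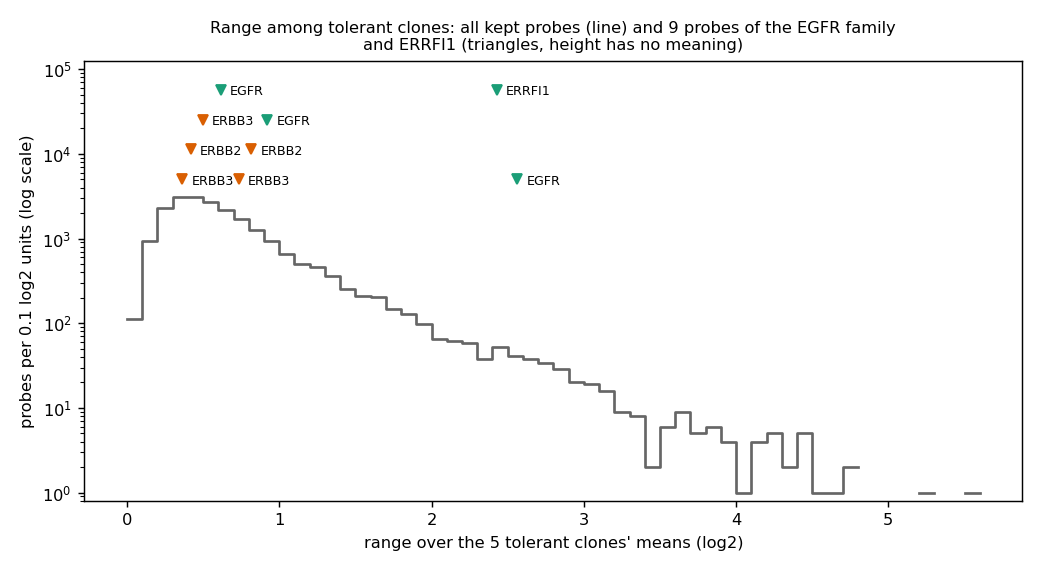
Distribution over the 21912 kept probes of the range between the highest and lowest tolerant clone mean, in log2 units, as a line with the number of probes on a log axis, and the 9 kept probes as triangles whose height has no meaning. EGFR ILMN_1798975 (2.56) and ERRFI1 ILMN_1665510 (2.43) lie far out among the 16.3% of probes with a range over 1.

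The genes whose clone means ran most like each receptor were taken by Pearson correlation over the 6 clone means, among 4006 genes whose clones ranged over more than 1 log2 unit. For EGFR they were SLC6A10P (0.958), the metallothionein MT1X (0.952) and the creatine transporter SLC6A8 (0.935), and for ERRFI1 they were C1GALT1C1L (0.950), SLC6A8 again (0.949) and SERTAD2 (0.941). SLC6A10P is a pseudogene copy related to SLC6A8, so its probe may share that transcript. For ERBB2 they were the transcription factor STAT3 (0.997), the tetraspanin CD9 (0.997) and DAZAP2 (0.997), and for ERBB3 HDHD3 (0.997), NME3 (0.996) and SYTL2 (0.995). These correlations rest on 6 points each, the best of 4006 candidates, and carry no test.

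Among the receptors' ligands, HBEGF was lower in every tolerant clone than in B7. Of 11 ErbB ligand genes, 7 had a kept probe, and of these 0 were called higher and 1 lower, against 1.1% and 1.31% of all kept probes. The median difference was -0.79 log2 units, or -0.42 with 2 ligands below the limit in one response group set to their bounds, against -0.00293 over all kept probes. The called ligand was HBEGF, a membrane-shed ligand of EGFR: its clone levels were 11.69 for B7, 9.08 for D6, 7.77 for E1, 8.89 for E2, 7.68 for E3 and 8.05 for E6. The difference was -3.40 ± 0.55 (SE, adjusted p = 0.0328 by limma), a call that was not recomputed under the alternative settings. HBEGF was thus low both in E1, where EGFR was highest, and in E6, where it was lowest. The 2 ligands set to their bounds were the neuregulins NRG1 and NRG4, which went opposite ways. NRG1, a ligand of ERBB3, was above the limit on both B7 arrays and on 0 of 10 tolerant arrays, at least 1.34-fold lower in the tolerant clones. NRG4, a ligand of ERBB4, was above it on 0 B7 arrays and 6 tolerant arrays, at least 1.32-fold higher. Each passed the filter only through the group where it was high, so neither difference counts as a result of a test.

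Of 25 adaptor and effector genes downstream of the receptors, 15 had a kept probe and 0 were called in either direction by limma, with a median difference of -0.00587. At an unadjusted p under 0.05, 2 were higher and 1 lower. The largest values were STAT3, a transcription factor activated by receptor kinases, at 1.43 ± 0.33 (SE, adjusted p = 0.0713), and the kinase MAPK3, or ERK1, at 1.21 ± 0.29 (adjusted p = 0.0796). ERBB4, the remaining receptor of the family, was detected on 0 arrays. Of 20 other genes that turn over or inhibit the receptors, 18 had a kept probe, and 0 were called higher and 1 lower, against 1.1% and 1.31% of all kept probes, with a median of 0.22. That gene was SH3KBP1, or CIN85, an adaptor that joins the ubiquitin ligase CBL to receptor uptake. Its level was 12.81 in B7 against 10.85 to 11.48 in the others, and the tolerant mean differed by -1.68 ± 0.26 (SE, adjusted p = 0.0276 by limma). The SH3KBP1 call was not recomputed under the alternative settings either. CBL itself differed by -0.46 ± 0.20 (adjusted p = 0.215) and CBLB by 1.38 ± 0.44 (adjusted p = 0.135).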

How the data were processed

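RNA from 12 PC9 samples was hybridised to Illumina bead arrays, 2 per clone. The deposited non-normalized file holds scanner intensity with background already subtracted, since 26.6 to 28.4% of values per array lie below 0. Its detection p-value columns are empty, so the planned detection filter was replaced. The authors' processed intensity values have a floor of 20. Their normalization method and scanner software are not given in the sources used here.

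Signals were corrected by normexp (saddle, offset 16), quantile normalized between arrays and log2-transformed (limma 3.58.1, R 4.3.3). A probe was detected above 2.33 times the root mean square of an array's negative values. Probes were assigned to genes by the platform annotation. Clone-level tests used limma on 6 clone means (4 residual degrees of freedom, which assumes that B7 varies as the tolerant clones do), and array-level tests used all 12 arrays. The comparisons with B7 were 2-sided, and all tests were Benjamini-Hochberg adjusted over all kept probes or pairs. All were also run on simulated data. There B7 was drawn with the spread of the tolerant clones, so the simulation could not check that assumption. Precision is limited by how few arrays and clones there are.

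Genes and lists were chosen with earlier results of these data known. Named were all probes of the 5 genes, the 3 genes most like each by correlation, and per list up to 3 called genes or else the 2 largest values. CBL, CBLB, NRG1, NRG4 and ERBB4 were added after their values were seen. Alternatives were no background correction, offset 50, median and 75th percentile scaling, the authors' values, no filter, the brightest probe per gene, the replicate number or the clone as a block, and leaving out arrays or clones. No normalization between arrays was added after seeing the data. Same-numbered arrays of different clones did not deviate together: 0 of 15 pairs of clones correlated over 0.1 (-0.0233 to 0.042).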

Additional observations from a re-analysis of the deposited data

Results flagged for a closer look

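At EGFR ILMN_1798975 the clones went opposite ways from B7: both E1 arrays lay above it and all arrays of D6, E2, E3 and E6 below it, and the tolerant clones differed from each other (adjusted p = 6.83e-08, moderated F test in limma at the array level). ERRFI1 ILMN_1665510 lay above B7 in D6 and E1 and below it in E2, E3 and E6. The tolerant clones differed from each other there (adjusted p = 2.6e-08 by the F test), a test that does not compare them with B7. Against B7, E2 was not called (adjusted p = 0.362 by limma). The sign for D6 turned with median scaling and with no normalization between arrays. EGFR ILMN_1696521 had the same split of clones (adjusted p = 3.24e-05 by the F test), and its signs for D6 and E1 turned under the same 2 settings. Neither D6 nor E1 was called against B7 there (adjusted p = 0.0757 and 0.0611 by limma). The dim ERBB3 probe ILMN_2397602 lay above B7 in D6, E1, E3 and E6 and below it in E2 (adjusted p = 0.0477 by the F test), with D6 and E1 below B7 when arrays were not normalized to each other. At this probe D6, E1 and E2 were not called against B7 (adjusted p = 0.148, 0.245 and 0.597 by limma).

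At ERBB3 ILMN_1751346, E2 stood apart from the other 4 tolerant clones: its gap to the nearest was 0.764 of the whole range, above Dixon's critical value of 0.71 for 5 samples. The gap was 0.452 with median scaling and 0.19 with no normalization between arrays, both below that value, and 0.763 to 0.813 in the other 4 settings of scaling and background. Chance gives such a gap in about 1 in 20 groups, and 9 probes were examined. Over all kept probes E2 also had the fewest called against B7, 39.1% against 51.9 to 57.9% in the other tolerant clones.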

How the results depend on the processing

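With 4 residual degrees of freedom, the counts over all kept probes depend on single clones. Leaving out 1 array or clone gave 56 to 1469 probes higher and 80 to 1707 lower in the tolerant clones, against 242 and 288 with all of them, and 8 to 125 probe pairs against 27. The highest of each came without clone E2 and the lowest without E3. Without D6 there were 96 higher, 150 lower and 14 pairs, without E1 126 higher and 150 lower, and without E6 59 higher and 89 lower. Probes lower numbered 109 with no background correction, 569 with median scaling, 433 with 75th percentile scaling, 512 with no normalization between arrays and 174 with the brightest probe per gene. Probes higher numbered 161 in the authors' values and 145 with no normalization between arrays. Pairs numbered 58 with offset 50 and 12 in the authors' values. With the clone as a random block the counts were 1521 higher and 1397 lower. With the 12 arrays taken as samples they were 6211 and 6561 with the replicate number as a block and 6218 and 6554 without it, and 5 and 4 more of the 9 probes passed, since arrays of a clone then count as replicates of the response. In the array-level fits the replicate block moved 3 dim ERBB3 calls and no other: ILMN_1737993 in E2 passed (adjusted p = 0.0459), while ILMN_2397602 in E6 (adjusted p = 0.0527) and among the tolerant clones (adjusted p = 0.0575) did not. The numbers did not pair the samples.

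Of 256 recomputed values of the tolerant clones against B7 at the 9 probes, 231 kept direction and call. The EGFR ILMN_1728858 call held in 22 of 28 alternatives and the ERBB3 ILMN_1751346 call in 23 of 29. These alternatives include 17 fits that left out an array or clone, and fits that took arrays as samples. Both calls held in each fit that left out an array or took arrays as samples. They were lost in the authors' values, with no background correction, and without clone D6, E1, E3 or E6. The tallies are therefore not counts of independent support at the clone level. Among 900 values of single clones, 821 kept direction and call. The median of all kept probes shifted by -0.164 with median scaling and by -0.275 with no normalization between arrays, and most changes of sign arose there; the cause was not tested. With median scaling the sign turned for EGFR ILMN_1696521 in D6 (-0.33) and E1 (-0.15), ERRFI1 in D6 (-0.19), ERBB3 ILMN_1737993 in E1 (-0.22) and ERBB2 ILMN_1717902 in E6 (-0.0149). With no normalization between arrays it turned for ERBB3 ILMN_2397602 in the tolerant mean (-0.035), D6 (-0.16) and E1 (-0.0664), EGFR ILMN_1696521 in D6 (-0.53) and E1 (-0.27), ERBB3 ILMN_1737993 in D6 (-0.14), E1 (-0.34) and E6 (-0.0218), ERRFI1 in D6 (-0.38), and ERBB2 ILMN_1717902 in E3 (-0.0544) and E6 (-0.13). The remaining changes of sign were at dim probes. ERBB2 ILMN_1717902 was 0.073 in the tolerant mean, 0.17 in D6 and 0.093 in E1 with 75th percentile scaling, -0.0317 in E6 in the authors' values, and -0.0647 to 0.0751 in E6 over the fits that left out an array (-0.025 without the first B7 array). ERBB3 ILMN_1737993 was -0.00342 in E1 in the authors' values and -0.25 to 0.274 over the fits that left out an array.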
